A study of Homo sapiens with 15 samples.

Results

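The gene expression profile of IMR32 neuroblastoma cells 24 time units after induction of the homeobox gene MSX1 was compared with that of the same cells at time 0. The comparison holds 6 of the 15 arrays of the series, namely the 3 arrays titled t = 24 and the 3 titled t = 0, chosen by their titles alone, and covers all 12880 genes that were bright enough to be tested. The 25 largest rises at t = 24 were led by LIX1 and GABRP. They included genes of a hydroxylase and a chain of collagen, a matrix proteoglycan, junction scaffolds and Notch effectors, and the BMP antagonist gene NOG. Genes of DNA replication and mitosis were lower at t = 24 by small amounts, and the 25 largest falls were led by LMO4, ENC1 and PAG1 and included a chemokine receptor, a neuronal kinesin and an acetylcholine receptor subunit.

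IMR32 is an established human neuroblastoma line, grown here in medium with fetal calf serum. In all 15 samples the cells carried an MSX1 construct, and doxycycline in the medium switched it on. The arrays used here fall into these groups of 3: doxycycline-treated cells at t = 24, the cells at t = 0, doxycycline-treated cells at t = 8 and t = 48, and control cells at t = 48 that were grown alike without doxycycline. The labels do not state the unit of t, the number of cell clones, or whether replicates were separate cultures, so a p-value here reflects variation among these samples alone, part of which may be technical. No control at t = 24 and no doxycycline-treated cells without the construct were among the samples, so induction, doxycycline and time in culture cannot be told apart in the comparison of t = 24 with t = 0. RNA was taken from whole cultures, in which fewer cells of a type and less RNA per cell cannot be told apart.

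MSX1 encodes a homeodomain transcription factor, known mostly as a repressor, that is used in the neural crest, the jaw and tooth primordia and the limb bud of vertebrate embryos. Neuroblastoma arises from the sympathoadrenal branch of the neural crest, whose cells use regulators such as PHOX2A, GATA3 and ISL1 and the MYC-family oncogene MYCN. Homeodomain factors of the Msx type are known to prefer sites built on the letters TAAT.

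Promoter windows of 4 genes are shown. The genes considered were the 25 largest rises, the 25 largest falls and 10 genes chosen by name. A window was searched for 36 of these 58 genes (13 of the rises and 18 of the falls). The 4 genes shown were those, among the genes searched, whose window held TAATTG or TAATTA. Genes left out of this search include leading rises and falls, and whether their windows hold the motif is not reported here. Each window runs from 250 bases before to 50 bases after an annotated start of the gene. It is written 5′ to 3′ on the strand of the gene and comes from RefSeq on GRCh38.p14. The start used need not be that of the main transcript, and other starts of a gene were not searched. Capitals mark the motif. The window of H2AC6, a histone H2A gene that was higher at t = 24, is chr6:26123922-26124221 on the plus strand. The windows of MEST (chr7:130485925-130486224, plus strand), an imprinted gene of the hydrolase fold family, and of VAV3 (chr1:107688450-107688749, minus strand) belong to genes that were lower at t = 24. The window of MSX2, the paralogue of MSX1 that was higher at t = 24, is chr5:174724332-174724631 on the plus strand.
H2AC6: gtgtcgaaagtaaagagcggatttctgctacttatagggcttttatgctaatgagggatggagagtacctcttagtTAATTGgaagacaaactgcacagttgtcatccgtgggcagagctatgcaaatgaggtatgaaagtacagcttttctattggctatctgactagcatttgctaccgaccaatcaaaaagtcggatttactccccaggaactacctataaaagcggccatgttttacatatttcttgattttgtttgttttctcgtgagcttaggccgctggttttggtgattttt
MEST: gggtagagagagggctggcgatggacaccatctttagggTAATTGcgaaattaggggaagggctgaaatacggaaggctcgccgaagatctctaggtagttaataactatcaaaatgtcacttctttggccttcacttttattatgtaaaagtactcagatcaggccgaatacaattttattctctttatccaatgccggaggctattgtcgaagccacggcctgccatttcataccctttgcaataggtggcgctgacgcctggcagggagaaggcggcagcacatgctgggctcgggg
VAV3: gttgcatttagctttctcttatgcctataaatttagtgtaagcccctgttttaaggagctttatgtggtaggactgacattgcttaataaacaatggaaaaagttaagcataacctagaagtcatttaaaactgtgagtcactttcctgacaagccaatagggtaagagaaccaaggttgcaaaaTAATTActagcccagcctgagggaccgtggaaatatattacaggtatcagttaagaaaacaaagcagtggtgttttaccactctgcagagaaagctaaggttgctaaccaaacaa
MSX2: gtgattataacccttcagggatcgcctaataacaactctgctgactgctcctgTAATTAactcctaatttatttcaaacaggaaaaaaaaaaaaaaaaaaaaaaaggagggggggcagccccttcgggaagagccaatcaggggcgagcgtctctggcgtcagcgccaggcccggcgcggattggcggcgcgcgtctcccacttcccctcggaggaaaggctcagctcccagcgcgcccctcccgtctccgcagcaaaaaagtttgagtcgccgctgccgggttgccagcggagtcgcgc
The motif began 174 bases before the start used for H2AC6, 211 before that for MEST, 65 before that for VAV3 and 197 before that for MSX2. Promoter windows could be matched for 10428 of the 12880 genes. TAATTG or TAATTA, on either strand, stood in 7.41% of the windows of genes higher at t = 24 (45 of 607), 4.96% of those of genes lower at t = 24 (26 of 524) and 5.76% of all windows (601 of 10428). The share was 12.4% (15 of 121) for genes that were higher by at least 2-fold and 12.5% (2 of 16) for genes that were lower by at least 2-fold. The windows of genes higher by at least 2-fold had a median GC content of 61.7% against 65.3% for all windows. A match describes the letters in the window and is not evidence of a binding site.

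Each of the 15 arrays had the same 2%-trimmed mean signal, 100.01, and array medians lay between 18.1 and 22.6. Signals of the bacterial hybridisation control bioC were low on array 1 of t = 24 (101.3 and 87.6 on its 3′ and 5′ probe sets), and the 5′ probe set for 18S ribosomal RNA was high on array 3 of t = 0 (703.6, against 69.1 to 178.1 on the other arrays). Counts are given without these arrays where that changes them by over 1.5 times, and the part of either signal in the results was not tested. Of the sympathetic neuroblast markers, MYCN, GATA3, PHOX2A, ELAVL4 and CHGA were bright in both groups. Others were much dimmer, among them HAND2, CHGB, GATA2 and DBH. STMN2 lay below the array medians (mean signal 15.7 at t = 24 and 14.8 at t = 0). TH, which encodes the enzyme that starts catecholamine synthesis, was close to 0 (mean signal 2.3 at t = 24 and 1.1 at t = 0).

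At t = 24, 1394 of 12880 genes (10.8%) differed from t = 0 at an adjusted p under 0.05 in limma, 767 of them higher (5.95%) and 627 lower (4.87%). The counts of gene lists given below are to be read beside these shares of all genes. Rises were larger than falls, since 172 genes were higher by at least 2-fold (1.34%) and 23 were lower by at least 2-fold (0.179%). The median log2 fold change was 0.62 over the higher genes, -0.44 over the lower genes and -0.01 over all genes. The signals of the t = 24 and t = 0 arrays did not overlap for 3909 genes (30.3%), 14.9% of all genes with higher and 15.4% with lower signals at t = 24, and 1388 of the called genes (10.8% of all genes) were among them. Centring the arrays on the median of the tested genes changed the split to 601 higher and 1037 lower, so that the balance of rises and falls depends on the scaling. Without array 3 of t = 0, 919 genes were called, and without array 1 of t = 24, 897 genes.

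**Figure D1:**
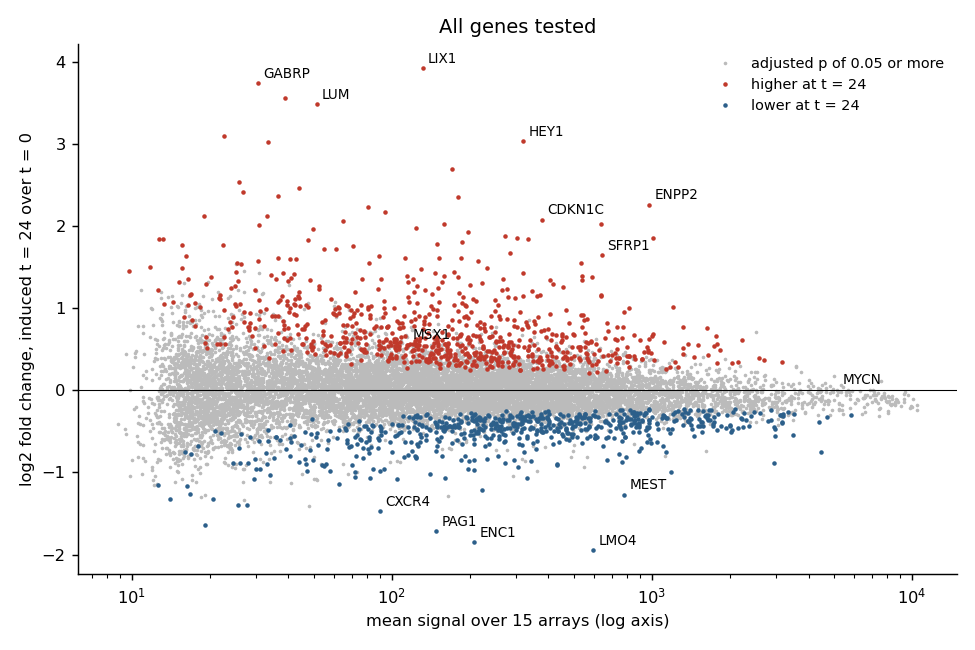
Log2 fold change at t = 24 over t = 0 (vertical axis) against the mean signal over the 15 arrays (horizontal axis, log scale) for the 12880 genes, with red points for the 767 genes higher and blue points for the 627 genes lower at an adjusted p under 0.05. Falls called by the test are mostly small and lie among bright genes, while the largest rises lie among dim and medium genes.

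The induced gene itself rose moderately. MSX1 had signals of 142, 172 and 182 at t = 24, against 116, 122 and 95.5 at t = 0. The groups did not overlap, with a log2 fold change of 0.55 (SE 0.15, adjusted p = 0.0299). A second, dimmer probe set for MSX1 had means of 21.8 at t = 24 and 30.4 at t = 0 (log2 fold change -0.41, adjusted p = 0.461 over all kept probe sets). The call for MSX1 was lost without array 3 of t = 0 (log2 fold change 0.46, adjusted p = 0.111) and without array 1 of t = 0 (0.59, 0.0558), array 2 of t = 24 (0.53, 0.0815) or array 3 of t = 24 (0.48, 0.1). In control cells at t = 48 the MSX1 signals were 46.5, 50.2 and 55.5, below those at t = 0 (log2 fold change -1.05, adjusted p = 0.00501), and in treated cells at t = 48 they were 96.9, 67.7 and 84.9 (0.65 over control cells, adjusted p = 0.0165). Which of the probes can read the RNA of the construct is not given in the sources used here.

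MSX2 also rose. Its signals were 95.9, 110.2 and 124 at t = 24, against 24.5, 27.7 and 29 at t = 0, without overlap, with a log2 fold change of 1.83 (SE 0.15, adjusted p = 9.95e-06). The second MSX2 probe set moved the same way (log2 fold change 1.96). Of 9 measured MSX, DLX and related homeobox genes, 4 rose and none fell, with a median of 0.55. The others that rose were DLX5, a distal-less gene of the jaw and ventral forebrain (log2 fold change 1.31), and LHX8, a LIM homeobox gene of the same regions (0.67).

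**Figure D2:**
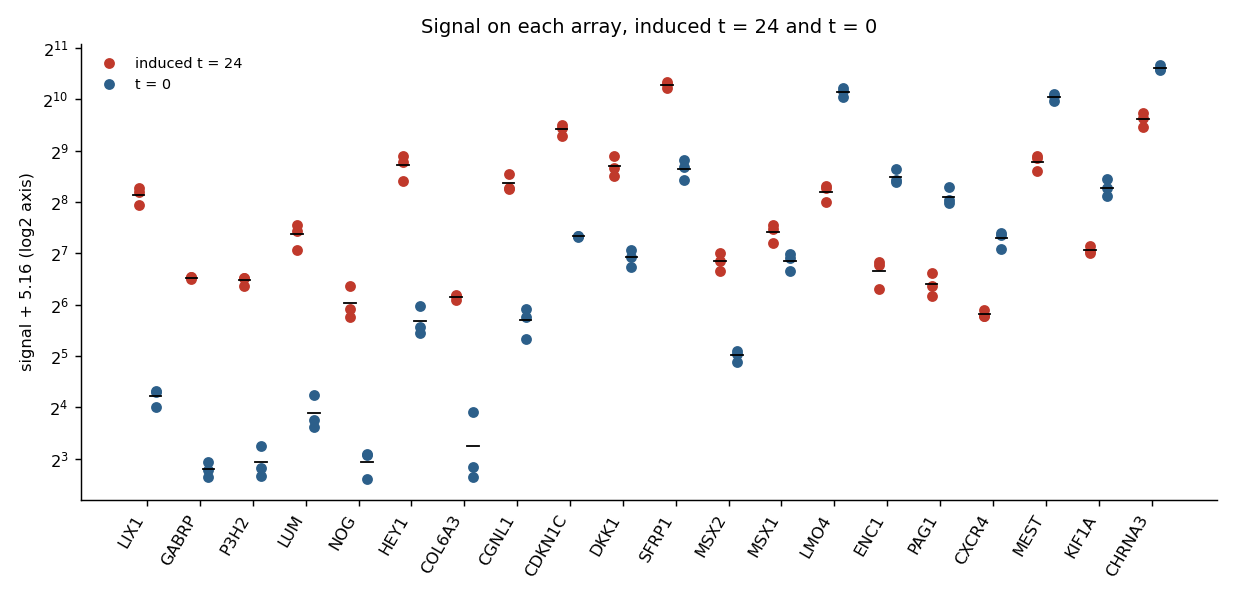
Signal plus an offset of 5.16 (vertical axis, log2 scale) on each of the 3 arrays at t = 24 (red, left of each pair) and the 3 arrays at t = 0 (blue, right) for 20 genes, with bars at the group means. For each gene shown, the 2 groups of points are apart, by the widest distance for LIX1 and GABRP and by the narrowest for MSX1.

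LIX1 had the largest rise of all genes whose groups did not overlap. LIX1, named for its expression in the embryonic limb, had signals of 304, 241 and 286 at t = 24, against 14.9, 11 and 14.6 at t = 0, with a log2 fold change of 3.92 (SE 0.19, adjusted p = 1.11e-07). GABRP, which encodes the pi subunit of GABA-A receptors, had signals of 87.5, 85.7 and 87.4 at t = 24, against 2.5, 1.7 and 1.1 at t = 0, with a log2 fold change of 3.74 (SE 0.27, adjusted p = 3.71e-06). For GABRP and for 14 of the 25 largest rises in all, the mean signal at t = 0 was under 20, close to or below the array median, so the fold changes of these genes depend on the offset added before the logarithm. MYOCD, the cardiac and smooth muscle coactivator myocardin, had signals of 47.6, 57.8 and 49.3 at t = 24, against 3.4, 6.6 and 4.0 at t = 0 (2.54). KIF26B, an unusual kinesin known from kidney development in mice, had signals of 323, 334 and 312 at t = 24, against 64.7, 63.8 and 50.1 at t = 0 (2.35). The MAST4 kinase gene was also without overlap, at 295, 297 and 285 at t = 24, against 70.7, 66.6 and 66.3 at t = 0 (2.03).

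Among Notch genes, 6 of 28 measured members rose and 2 fell (of all genes 5.95% rose and 4.87% fell), with a median of -0.03. HEY1 and HES1 encode hairy-type repressors that are direct targets of Notch in many tissues. HEY1 signals were 334, 434 and 473 at t = 24, against 38.5, 57.6 and 42.3 at t = 0, with a log2 fold change of 3.03 (SE 0.17, adjusted p = 5.64e-07). HES1 signals were 66.8, 48.3 and 59.2 at t = 24, against 2.5, 14.8 and 14.8 at t = 0, with a log2 fold change of 2.11 (SE 0.32, adjusted p = 0.00114). Both genes were without overlap, and HES1 was under 20 on each t = 0 array. The ligand gene DLL1 (1.03) and the coactivator genes MAML2 (1.27) and MAML3 (0.86) rose as well, whereas the receptor gene NOTCH3 was at 129.6 ± 20.9 at t = 24 and 131 ± 6.9 at t = 0 (SD, n = 3 each) and the non-canonical ligand gene DLK1 at 86.8 ± 8.1 at t = 24 and 83.2 ± 20.5 at t = 0 (SD, n = 3 each) (adjusted p = 0.956 and 0.824).

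Secreted antagonists of the Wnt and BMP pathways were among the clear rises. DKK1 blocks the Wnt coreceptors LRP5 and LRP6, and its signals were 356, 402 and 473 at t = 24, against 129, 117 and 102 at t = 0, with a log2 fold change of 1.77 (SE 0.18, adjusted p = 4.44e-05). SFRP1 binds Wnt proteins, and its signals were 1286, 1186 and 1258 at t = 24, against 403, 446 and 341 at t = 0, with a log2 fold change of 1.64 (SE 0.13, adjusted p = 5.54e-06). The groups were apart for both genes. DKK3 also passed the test at 0.45 (adjusted p = 0.0154), and its call was lost without array 2 of t = 0 (0.33). FRZB, the other member of the 4 measured, was lower at -0.47, a call lost without array 3 of t = 0 (-0.4) or array 3 of t = 24 (-0.42). A second FRZB probe set was at -0.7 (adjusted p = 0.00571 in limma over all kept probe sets). The other DKK3 probe sets were at 1.07 and 0.22 (adjusted p = 0.000222 and 0.672 in the same fit).

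Of 29 Wnt ligands, receptors and targets, 6 rose and 2 fell (of all genes 5.95% rose and 4.87% fell), with a median of 0.08. WNT5A, a ligand known mainly for signalling without beta-catenin, had signals of 227, 225 and 216 at t = 24, against 71.2, 59.5 and 79.9 at t = 0, with a log2 fold change of 1.61 (SE 0.16, adjusted p = 3.63e-05). The R-spondin receptor genes moved in opposite directions, LGR4 by 1.12 and LGR5 by -0.89. LGR5 was dim, with means of 17.5 at t = 24 and 36.5 at t = 0. Its second probe set was at -0.9 without a call (adjusted p = 0.0692 in limma over all kept probe sets). TCF7L2, a nuclear partner of beta-catenin, rose by 0.78.

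Of 22 BMP antagonists, SMADs and ID genes, 4 rose and none fell (of all genes 5.95% rose and 4.87% fell), with a median of 0.07. Noggin, the product of NOG, binds BMPs outside the cell, and NOG signals were 49.2, 54.9 and 77.6 at t = 24, against 3.2, 0.9 and 3.4 at t = 0, with a log2 fold change of 3.09 (SE 0.17, adjusted p = 5.64e-07). BAMBI, a decoy receptor without a kinase, had signals of 814, 992 and 964 at t = 24, against 355, 358 and 332 at t = 0, with a log2 fold change of 1.39 (SE 0.08, adjusted p = 9.56e-07). Neither gene had overlapping groups, although NOG was near 0 on the t = 0 arrays. FST, which encodes the activin-binding protein follistatin, rose by 1.0, and ID2, a BMP target that blocks basic helix-loop-helix factors, by 0.61. Of 20 ligand and receptor genes of the BMP and TGF-beta family, 4 receptor genes rose by 0.34 to 0.55, and the ligand genes TGFB2 (-0.82) and INHBE (-0.84) fell. Of the 4 rises 2 were called without array 2 or array 3 of t = 24, and none with the arrays centred on the median of all probe sets or in a fit of only the 6 arrays.

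Collagen genes moved upward as a group. Of 18 measured collagen chains 10 rose (55.6%, against 5.95% of all genes) and none fell, with a median log2 fold change of 0.56 against -0.01 over all genes. COL6A3, a chain of the beaded-filament collagen VI, had signals of 68, 66.5 and 63 at t = 24, against 1.1, 9.9 and 2.0 at t = 0, with a log2 fold change of 3.02 (SE 0.39, adjusted p = 0.000301). COL1A1, the main chain of fibrillar collagen I, had signals of 1060, 796 and 900.3 at t = 24, against 407, 308 and 333 at t = 0, with a log2 fold change of 1.38 (SE 0.15, adjusted p = 6.52e-05). The t = 24 signals of both genes were above those at t = 0 on every array. Collagen XIII (COL13A1, 1.86), collagen V (COL5A1, 0.85) and collagen III (COL3A1, 1.05) also rose. Without array 1 of t = 24 and array 3 of t = 48, both with weak hybridisation controls, 6 collagen chains were called, and COL3A1 (0.94) was not among them.

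P3H2, a prolyl 3-hydroxylase of collagen chains, had signals of 86.2, 87 and 77.2 at t = 24, against 4.3, 1.9 and 1.2 at t = 0, with a log2 fold change of 3.56 (SE 0.36, adjusted p = 4.97e-05). ADAMTS2, the protease that cuts the amino-terminal propeptide from procollagen, had signals of 55.1, 35.6 and 44.6 at t = 24, against 20.8, 2.3 and 2.5 at t = 0 (2.12). The single t = 0 array above 20 for ADAMTS2 stood below each t = 24 array. Of 21 collagen-modifying genes 5 rose and 2 fell, with a median of 0.12, and 3 rose without array 1 of t = 24 or without either array 2 or array 3 of t = 0, and 2 with centring on all probe sets. PLOD2, a lysyl hydroxylase, was one of those that fell (-0.48).

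Among 30 matrix proteoglycans and glycoproteins, 5 rose and 3 fell (1 without array 3 of t = 24, array 2 of t = 0 or array 3 of t = 0), with a median of -0.04. LUM, which encodes the collagen-binding proteoglycan lumican, had signals of 183, 129 and 168 at t = 24, against 13.8, 8.3 and 7.1 at t = 0, with a log2 fold change of 3.48 (SE 0.21, adjusted p = 7.80e-07). TNR, the neural matrix protein tenascin-R, had signals of 46.9, 50.8 and 41.1 at t = 24, against 2.8, 7.6 and 4.5 at t = 0, with a log2 fold change of 2.37 (SE 0.28, adjusted p = 0.000149). FN1 (fibronectin, 1.25), SPOCK1 (a proteoglycan of the testican family, 1.49) and MATN2 (matrilin-2, 0.95) rose too. HAS2, one of the hyaluronan synthases, had signals of 90.5, 65.9 and 83.5 at t = 24, against 15.3, 17.3 and 15 at t = 0 (2.01). Of 29 matrix proteases and inhibitors, 6 rose and 2 fell, against 5.95% and 4.87% of all genes. Those with the largest rises were ADAMTS15 (1.63), the inhibitor gene TIMP3 (1.31), the gelatinase gene MMP2 (1.28) and PLAT, the tissue plasminogen activator (1.2).

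A minority of adhesion and junction genes passed the test. CGNL1, which encodes the junction scaffold paracingulin, had signals of 369, 300.2 and 305 at t = 24, against 35.1, 55.1 and 49.3 at t = 0, with a log2 fold change of 2.69 (SE 0.2, adjusted p = 4.37e-06). PLEKHA6, a junction-associated protein, had signals of 52.8, 39.7 and 41.7 at t = 24, against 11.2, 1.7 and 1.4 at t = 0 (2.46). The laminin receptor gene ITGA6 had signals of 142, 124 and 157 at t = 24, against 28.5, 40.1 and 17.1 at t = 0, with a log2 fold change of 2.17 (SE 0.21, adjusted p = 3.93e-05). Of 18 junction scaffolds 3 rose and none fell, and of 17 integrins and laminins 4 rose and none fell, by 0.53 (LAMB1, a laminin chain) to 2.17 and including ITGB5 (1.96), against 5.95% of all genes higher. Among 18 cadherins CDH11 (1.93) and PCDH8 (1.43) rose and 3 fell, or 1 without array 1 or array 3 of t = 0 or with centring on all probe sets. PODXL, a sialomucin of podocytes and embryonic cells, had signals of 146, 153 and 144 at t = 24, against 30.1, 32 and 39.9 at t = 0 (1.98).

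Of 51 axon guidance genes 11 rose and 3 fell (of all genes 5.95% rose and 4.87% fell), with a median of 0.12. Without array 2 of t = 0, without array 3 of t = 0 or with centring on all probe sets, 7 rose, and 1 fell without array 2 or 3 of t = 24 or array 1 or 3 of t = 0. SEMA5B, a transmembrane semaphorin, had signals of 106, 118 and 116 at t = 24, against 16.8, 28.9 and 25.8 at t = 0 (2.06). NTN4, a netrin of basement membranes, rose by 1.25, PLXNA2, a plexin receptor, by 1.14, UNC5C, a netrin receptor, by 1.04 and NRP2, a semaphorin coreceptor, by 1.03.

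The gene lists of neuronal and sympathetic identity moved in mixed directions. Of 12 measured neuroblast markers 2 rose and 1 fell. ELAVL4, an RNA-binding protein of neurons, passed the test by a small margin (0.29), and its call was lost without array 1 or 2 of t = 24 (0.28 and 0.27) and without array 1 or 2 of t = 0 (0.3 and 0.24). PHOX2A, a regulator of the noradrenergic state, had signals of 1608, 1708 and 1754 at t = 24, against 1254, 1028 and 1147 at t = 0, with a log2 fold change of 0.57 (SE 0.08, adjusted p = 0.000823). MYCN signals were 5084, 5395 and 5199.9 at t = 24, against 5525, 4887 and 5197 at t = 0 (log2 fold change 0.01, adjusted p = 0.969), and the sign of that value changed with the scaling of the arrays. GATA3 signals were 3585, 3392 and 3156 at t = 24, against 3746, 3507 and 3617 at t = 0 (-0.1, adjusted p = 0.434), with overlap between the groups. ISL1, a LIM homeobox gene of sympathetic neurons, was lower at 285, 291 and 177 at t = 24, against 366, 565 and 439 at t = 0 (-0.86, adjusted p = 0.0367). The ISL1 call was lost without array 1 of t = 24 (-0.97), array 3 of t = 24 (-0.63), array 2 of t = 0 (-0.7) or array 3 of t = 0 (-0.88).

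In the neuronal cytoskeleton list, 4 of 20 genes rose and 4 fell (2 without array 3 of t = 0, and 1 with centring on all probe sets). Doublecortin (DCX, 1.13), peripherin (PRPH, 0.98) and tau (MAPT, 0.94) were higher, while the neurofilament gene NEFL (-0.47) and the tubulin gene TUBB3 (-0.44) were lower. The call for NEFL was lost without array 3 of t = 0 (-0.41). Its other probe sets were at -0.642 and -0.305 (adjusted p = 0.00128 and 0.458 in limma over all kept probe sets). Of 14 granins and neuropeptides 3 fell and none rose, among them neuropeptide Y (NPY, -0.7) and galanin (GAL, -0.75). Of 11 genes of catecholamine synthesis and transport 1 rose and 1 fell, with a median of -0.16. GCH1, which encodes the first enzyme of the synthesis of the cofactor of tyrosine hydroxylase, fell by 0.92, a call lost without array 3 of t = 0 (-0.82), and DBH, the dopamine beta-hydroxylase gene, was at 22.3 ± 15.1 at t = 24 and 46.5 ± 9.3 at t = 0 (SD, n = 3 each) (log2 fold change -1.09, adjusted p = 0.104). SLC6A2, the noradrenaline transporter gene, was the one that rose. It had signals of 271, 271 and 275 at t = 24, against 153, 130.1 and 127 at t = 0, with a log2 fold change of 0.98 (SE 0.11, adjusted p = 0.000135), and 1 of its 5 other kept probe sets had a value below 0 (-0.14, adjusted p = 0.842). Dimmer probe sets also differed in sign from the one used for COL1A1 (-0.13, with 2 others above 1), MAML3 (-0.48) and CD9 (-0.03), with adjusted p-values of 0.65, 0.665 and 0.97. For some genes a dimmer probe set moved the same way by less and was not called. Examples were KIF1A (-0.45), CGNL1 (0.61), PLEKHA6 (1.02), VEGFA (0.3 and 0.52), FN1 (0.04) and GAL (-0.16).

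Receptor genes also went both ways. Of 25 neurotransmitter-gated receptor subunits 4 rose and 4 fell, against 5.95% and 4.87% of all genes. GABRP had the largest rise and 3 nicotinic subunit genes had the largest falls. CHRNA3, the alpha-3 subunit of ganglionic acetylcholine receptors, had signals of 698, 843 and 786 at t = 24, against 1505, 1626 and 1528 at t = 0, with a log2 fold change of -1.0 (SE 0.12, adjusted p = 0.00022), and its partner CHRNB4 fell by 0.9 on the log2 scale. Of 29 chemokine and G protein receptor signalling genes 6 rose and 7 fell, with 3 lower without array 3 of t = 24 or array 3 of t = 0, 4 lower without array 1 of t = 24 or array 2 of t = 0, and 2 lower with centring on all probe sets. CXCR4, the receptor of CXCL12, had signals of 49.4, 49.6 and 54.3 at t = 24, against 159.7, 131 and 163 at t = 0, with a log2 fold change of -1.47 (SE 0.13, adjusted p = 1.36e-05). ENPP2, which encodes the lysophospholipase D autotaxin, had signals of 586, 730.2 and 682 at t = 24, against 135, 113 and 159.5 at t = 0, with a log2 fold change of 2.26 (SE 0.19, adjusted p = 1.09e-05). RGS4, a brake on G protein signalling, had signals of 531, 609 and 654 at t = 24, against 191, 194 and 218 at t = 0 (1.54), and control cells at t = 48 stood at 495, 544 and 757 (log2 fold change 1.53 over t = 0, adjusted p = 0.000755).

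Of 26 growth factor receptors and binding proteins 8 rose and 1 fell, against 5.95% and 4.87% of all genes. Without array 1 of t = 24, without array 3 of t = 0 or with centring on all probe sets, 4 rose. Without array 2 of t = 24, array 3 of t = 24 or array 2 of t = 0, 5 rose. IGFBP5, an insulin-like growth factor binding protein, had signals of 1920, 1306 and 1310.4 at t = 24, against 424, 360.1 and 442 at t = 0, with a log2 fold change of 1.85 (SE 0.16, adjusted p = 1.36e-05). IGFBP4, of the same family, fell by 1.08.

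The largest falls were smaller than the largest rises and ranged from -1.94 to -0.99 over 25 genes. LMO4, a LIM-only cofactor of the LDB1 complexes, had signals of 249.7, 305 and 312 at t = 24, against 1136, 1050 and 1182 at t = 0, with a log2 fold change of -1.94 (SE 0.14, adjusted p = 2.89e-06). ENC1, a kelch protein of the nervous system, had signals of 73.4, 109 and 104 at t = 24, against 328, 394 and 341 at t = 0, with a log2 fold change of -1.85 (SE 0.15, adjusted p = 9.79e-06). PAG1, a membrane adaptor that holds the kinase CSK, had signals of 66.9, 92.7 and 77.6 at t = 24, against 257, 307 and 246 at t = 0, with a log2 fold change of -1.71 (SE 0.12, adjusted p = 2.75e-06). In these 3 genes each t = 24 array lay far below each t = 0 array. MEST signals were 382, 469.5 and 456 at t = 24, against 1000.5, 1099.6 and 1066 at t = 0 (-1.27), and VAV3 signals 104, 94.6 and 101 at t = 24, against 204, 208 and 234 at t = 0 (-1.07). The neuronal transport kinesin KIF1A had signals of 126, 137 and 122 at t = 24, against 271, 343 and 302 at t = 0, with a log2 fold change of -1.21 (SE 0.1, adjusted p = 1.16e-05). NPTX1, a secreted pentraxin of synapses, had signals of 178, 184 and 220 at t = 24, against 397, 430 and 412 at t = 0 (-1.07). For 9 of the 25 genes the mean signal at t = 24 was under 20.

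**Figure D3:**
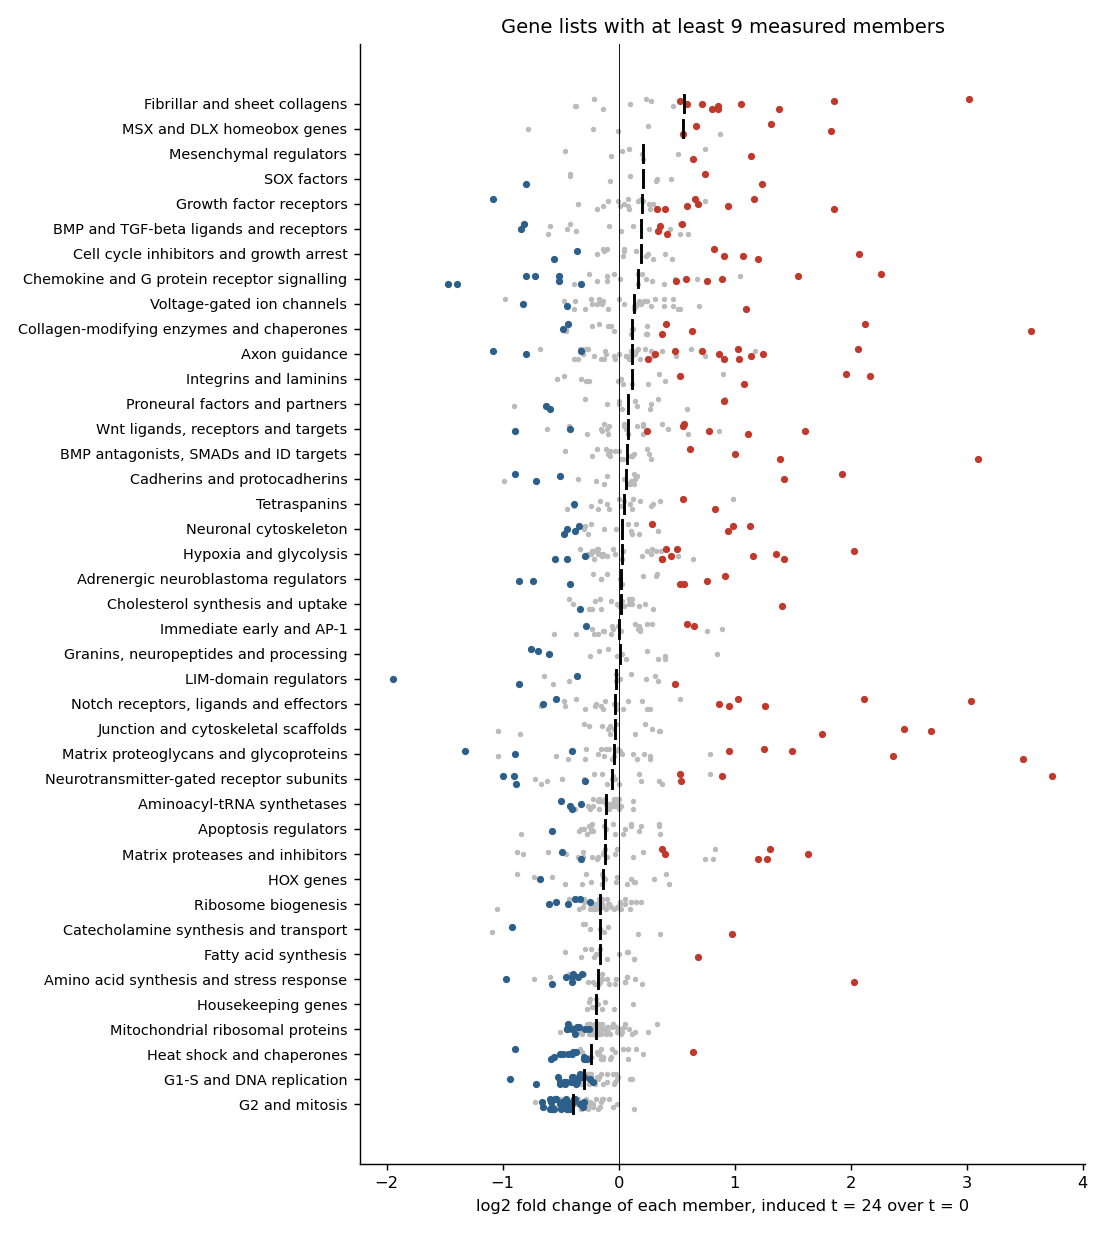
Log2 fold change at t = 24 over t = 0 (horizontal axis) of each measured member of the gene lists with 9 or more measured genes (1 line each, ordered by the list median), with red points for members that rose, blue points for members that fell, grey points for members that did not pass the test, and a black bar at the median. The collagen median lies at 0.56, the MSX and DLX median at 0.55 and the mitosis median at -0.39, with the members of most other lists spread on both sides of 0.

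Genes of cell division were lower at t = 24. Of 74 measured genes of the G2 phase and mitosis 40 fell (54.1%, against 4.87% of all genes) and none rose, with a median log2 fold change of -0.39. Of 52 genes of the G1-S transition and DNA replication 23 fell and none rose, with a median of -0.3. The falls were small. FOXM1, a transcription factor of mitotic genes, had signals of 358, 376 and 379 at t = 24, against 528, 592 and 567 at t = 0, with a log2 fold change of -0.59 (SE 0.07, adjusted p = 0.000229). CDC25A, a phosphatase that activates cyclin-dependent kinases, had signals of 220.1, 205 and 211 at t = 24, against 430.5, 398 and 400.1 at t = 0, with a log2 fold change of -0.93 (SE 0.09, adjusted p = 2.30e-05). Its dimmer probe sets had smaller falls without a call (-0.39 and -0.31, adjusted p = 0.185 and 0.344 over all kept probe sets in limma). The groups were apart for FOXM1 and CDC25A on the probe sets used, as they were for the mitotic kinase gene PLK1 at 400.2, 480.2 and 450.1 at t = 24, against 637, 609.9 and 762 at t = 0 (-0.59). CENPM and CDCA8, of the centromere and the chromosomal passenger complex, had the largest falls among the mitotic genes that passed the test (-0.66 and -0.66).

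The counts of these lists moved with single arrays and with the scaling. Without array 3 of t = 0, 25 mitosis genes fell. With the arrays centred on the median of all probe sets, 14 mitosis and 6 replication genes fell. Bright genes as a whole leaned the same way, since in the brightest of 5 equal classes of genes (mean signal of 465 or more) 9.28% fell, 4.62% rose and the median was -0.07, and 47 of the 74 mitosis genes were in that class. Its part in the falls was not tested.

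Among cell cycle inhibitors and growth arrest genes 5 of 20 rose and 2 fell. CDKN1C, which encodes the inhibitor p57, had signals of 622, 722 and 693 at t = 24, against 158, 157 and 155 at t = 0, with a log2 fold change of 2.08 (SE 0.09, adjusted p = 4.28e-08). GAS1, a membrane protein named for growth arrest, had signals of 485, 499 and 507 at t = 24, against 231, 195 and 215 at t = 0, with a log2 fold change of 1.2 (SE 0.11, adjusted p = 2.49e-05). No t = 0 array reached a t = 24 array for either gene. GADD45G (1.07) rose, and CDKN1A, which encodes p21, was lower at -0.56, a call lost without array 1 of t = 24 (-0.46) or array 1 of t = 0 (-0.47).

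Some chaperone and biosynthesis genes fell, in numbers that depended on the scaling. Of 38 heat shock and chaperone genes 12 fell and 1 rose, with a median of -0.24, and without array 1 of t = 24 or array 3 of t = 0, 7 fell. Of all genes 4.87% fell, and of the brightest class 9.28%, which held 26 of the 38. BAG2, a cochaperone of HSP70, had signals of 284, 306 and 350.1 at t = 24, against 541, 622 and 594 at t = 0, with a log2 fold change of -0.89 (SE 0.09, adjusted p = 4.19e-05). DNAJB1 (-0.58) and STIP1 (-0.48), cochaperones of HSP70 and HSP90, fell as well. Of 33 amino acid synthesis and stress genes 8 fell, including the serine synthesis gene PHGDH (-0.57), and 1 rose. That gene was DDIT4, an inhibitor of mTORC1 signalling induced by stress, with signals of 981, 1162 and 1302 at t = 24, against 279, 228 and 332 at t = 0 and a log2 fold change of 2.02 (SE 0.14, adjusted p = 2.75e-06). Of 73 mitochondrial ribosomal protein genes 9 fell (12.3%) and none rose (median -0.2). The brightest class, of which 9.28% fell, held 46 of these 73 genes. Without array 1 of t = 24, 3 were lower, and 5 were lower without array 2 or array 3 of t = 0. With centring on all probe sets 4 chaperone genes, 3 amino acid genes and no mitochondrial ribosomal protein gene fell, whereas 16 of the last fell with centring on the tested genes. None of 11 housekeeping genes was called, and their median was -0.19.

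Of 39 hypoxia and glycolysis genes 9 rose and 3 fell, with 5 higher and 1 lower without array 1 of t = 24. With centring on all probe sets 3 rose, and with centring on the tested genes 7 fell. VEGFA, the endothelial growth factor gene, had signals of 206, 175 and 237 at t = 24, against 76.3, 62.4 and 81.9 at t = 0, with a log2 fold change of 1.42 (SE 0.2, adjusted p = 0.000628). NDRG1, a stress-responsive gene, rose by 1.36, while the whole list had a median of 0.03.

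Markers of cells that the culture could hold besides neuroblasts were read in the same fit. Of 11 fibroblast markers 9 entered the test and 4 rose (LUM, COL1A1, COL3A1 and PDGFRA), with a summed signal of 2549 to 2603 at t = 24 against 1294 to 1434 at t = 0. The fibroblast genes that did not pass the test were DCN (means of 22.2 at t = 24 and 18.8 at t = 0), PDGFRB (34.7 and 21.4), THY1 (88.6 and 90.9), ACTA2 (44.3 and 44.7) and TAGLN (18.2 and 37.4). COL1A2 (14.9 and 6.6) and FAP, which was near 0 (3.6 and 1.4), did not enter the test. The part of these cells in the collagen result was not tested. Summed signals were 20.7 to 32.3 at t = 24 against 32.8 to 46 at t = 0 for Schwann cell markers, 67.5 to 89.4 against 45.7 to 68.9 for endothelial markers, and 43.6 to 65.8 against 50 to 88.7 for blood markers. The endothelial marker KDR was called higher at 27.2, 25.9 and 29.7 at t = 24, against 13.4, 6.0 and 9.7 at t = 0 (1.17), a call lost without array 1 of t = 24 (1.18), array 2 of t = 24 (1.21), array 3 of t = 24 (1.12), array 2 of t = 0 (0.98) or array 3 of t = 0 (1.19). Of the other 6 endothelial genes, PECAM1 did not pass the test (means of 27 at t = 24 and 26.1 at t = 0), and CDH5 (10.8 and 6.3), VWF (5.2 and 5.2), TEK (4.9 and 3.3), CLDN5 (2.4 and 3.5) and ESAM (1.6 and 1.6) were too dim to enter it. Summed signals were 60.4 to 79.2 at t = 24 against 39.2 to 84.7 at t = 0 for epithelial markers and 251 to 267.7 against 201.8 to 243.2 for melanocyte markers. Of the 3 melanocyte markers that entered the test, 1 was called higher (means of 104.5 at t = 24 and 77.6 at t = 0) and none lower. A second probe set of the called marker was at 0.02. In limma over all kept probe sets neither of its probe sets was called (adjusted p = 0.0662 and 0.958). TYR (12.6 and 13.2) and PMEL (125.5 and 116.2) did not pass the test.

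Over the time course the t = 24 level was a maximum for some genes and a step for others. Of the 25 largest rises 15 had their highest mean at t = 24 and 10 at t = 48. From t = 8 to t = 24, 18 of these 25 were called higher (3.45% of all genes). The genes were chosen for high signals on the t = 24 arrays, which favours both counts. The comparisons of t = 24 with t = 0, t = 8 and t = 48 share the t = 24 arrays, so their values are given side by side.

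DKK1 signals were 129, 117 and 102 at t = 0, 109, 70.9 and 71.5 at t = 8, 356, 402 and 473 at t = 24 and 70.3, 47.6 and 56.2 at t = 48. Each t = 24 array stood far above all arrays of the other times, with a log2 fold change of -2.72 at t = 48 over t = 24 (adjusted p = 3.39e-06). MSX2 was also highest at t = 24, with 42.6, 59.4 and 36.6 at t = 8 and 26.7, 30.2 and 34.2 at t = 48 (-1.69 at t = 48 over t = 24, adjusted p = 3.57e-05). CD9, a tetraspanin, stood at 265, 229.5 and 225 at t = 8, 402, 402 and 376 at t = 24 and 63.1, 75.2 and 78 at t = 48. CD9 was thus higher than t = 0 at t = 24 (0.83) and lower than t = 24 at t = 48 (-2.37). SLC6A2 fell by 1.5 and SNAI2, a zinc finger repressor of the neural crest, by 1.39 at t = 48 over t = 24. Both were also lower in control cells at t = 48 (93.2, 71.5 and 97.5 for SLC6A2 and 265, 208 and 186 for SNAI2) than at t = 0 (153, 130.1 and 127 and 467, 516 and 429), and SNAI2 in treated cells at t = 48 stayed above control cells (0.85, adjusted p = 0.00126).

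ENPP2 and HEY1 went on rising. ENPP2 signals were 216, 213 and 236 at t = 8, 586, 730.2 and 682 at t = 24 and 3503, 3353 and 3374 at t = 48 (2.35 at t = 48 over t = 24, adjusted p = 1.71e-05). HEY1 rose by a further 1.07 and PODXL by 0.94. H2AC6 was at 31.2, 29.2 and 26.5 at t = 0, 39.2, 30.4 and 29.9 at t = 8, 132, 157 and 179.8 at t = 24 and 135, 157 and 156 at t = 48, so that its step lay between t = 8 and t = 24. LMO4 and CXCR4 were already low at t = 8, at 332, 340 and 317 and 41.7, 43.6 and 46.3. NPTX1 and KIF1A were lowest at t = 24 and higher again at t = 48 (0.99 and 0.67).

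**Figure D4:**
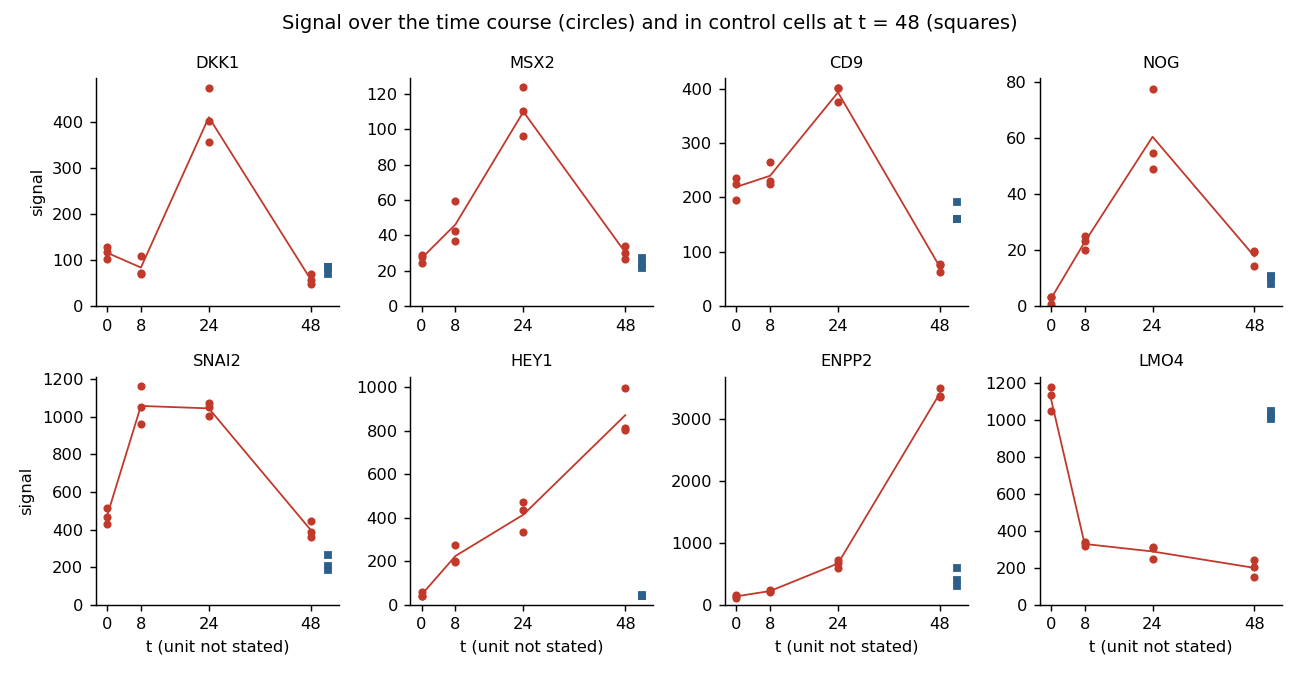
Signal (vertical axes) on each array at t = 0, 8, 24 and 48 (horizontal axes, unit of t not stated) for 8 genes, with circles for the time course, a line through the group means, and squares, drawn to the right of t = 48, for control cells at t = 48. DKK1, MSX2, CD9 and NOG peak at t = 24, SNAI2 is high at both t = 8 and t = 24, HEY1 and ENPP2 are highest at t = 48, and LMO4 is low from t = 8 on.

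The comparison of doxycycline-treated with control cells at t = 48 shares no array with that of t = 24 and t = 0, and it holds the time in culture equal. Both come from the same fit of all 15 arrays and share its estimate of the spread of each gene. Overlaps of their calls are therefore not independent. The t = 48 comparison called 1101 genes (8.55%), 678 higher and 423 lower, and leaving out single arrays of that comparison gave 625 to 816 genes. Of the 767 genes higher at t = 24, 370 were also higher at t = 48 (48.2% of the t = 24 list and 54.6% of the t = 48 list). Of the 627 genes lower at t = 24, 210 were also lower at t = 48 (33.5% and 49.6%). The sign at t = 48 was the same for 94% of the higher and 92.8% of the lower genes, and for 71.3% of all genes.

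Among the 25 largest rises 24 were called higher at t = 48 as well, against 5.26% of all genes. TNR was not called, at 55, 78.6 and 81.3 in treated and 29.2, 34.2 and 44.8 in control cells (log2 fold change 0.9, adjusted p = 0.0689). Genes such as GABRP, dim at t = 0 and in control cells, entered the test through treated arrays alone, which favours the count of 24. Control cells at t = 48 differed from cells at t = 0 for 0.846% of all genes and for 14 of the 112 called genes named here. Their change ran the same way as at t = 24 for TNR (2.04), ENPP2 (1.59), RGS4 (1.53), NOG (0.97), DCX (0.79), SPOCK1 (0.56), DLX5 (0.55), MAML3 (0.52) and DNAJB1 (-0.45), and the other way for SNAI2 (-1.09), MSX1 (-1.05), SFRP1 (-0.77), SLC6A2 (-0.62) and ID2 (-0.46). These values share the t = 0 arrays with those at t = 24. Of the 25 largest falls 13 were called lower at t = 48, against 3.28% of all genes. LMO4 stood at 240.2, 207 and 153 in treated and 1006, 1049 and 1023 in control cells at t = 48, with a log2 fold change of -2.35 (adjusted p = 8.24e-07). NPTX1 was at 343, 421 and 404 in treated and 450.5, 417 and 375 in control cells (-0.09, adjusted p = 0.721), with overlap between them.

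Calls in opposite directions were few. CD9 and the sulfatase gene SULF2, 2 of the 767 genes, were higher at t = 24 and lower in treated cells at t = 48. The synaptic protein gene CPLX1, the receptor kinase gene GRK5, the translational repressor gene NANOS1, the POU-domain gene POU3F1 and the synaptotagmin-like gene SYTL4, 5 of the 627 genes, were lower at t = 24 and higher in treated cells at t = 48. Apart from CD9 these genes were singled out after their values were seen. The t = 24 calls of CD9 and SYTL4 were kept without each of the 6 arrays in turn. The call of SULF2 (0.38) was lost without array 1 of t = 24 (0.3), array 2 of t = 0 (0.37) or array 3 of t = 0 (0.34), and that of POU3F1 (-0.49) without array 2 of t = 0 (-0.42). Those of CPLX1, GRK5 and NANOS1 were lost without 4, 5 and 5 of the 6 arrays, with values of -0.41 to -0.4, -0.74 to -0.63 and -0.42 to -0.31. CD9 had 63.1, 75.2 and 78 in treated and 159.5, 191 and 159 in control cells at t = 48 (-1.18, adjusted p = 2.51e-05), against a value of 0.83 at t = 24 over t = 0. GRK5 had 16.4, 24.2 and 15.9 at t = 24, against 32.4, 35.3 and 33.8 at t = 0, and 85.2, 73.8 and 84.9 in treated against 31.4, 44.6 and 48.3 in control cells at t = 48 (0.91). DKK1, with a rise of 1.77 at t = 24, had -0.44 at t = 48 over control cells (adjusted p = 0.16), and MSX2 had 0.27 (adjusted p = 0.302).

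**Figure D5:**
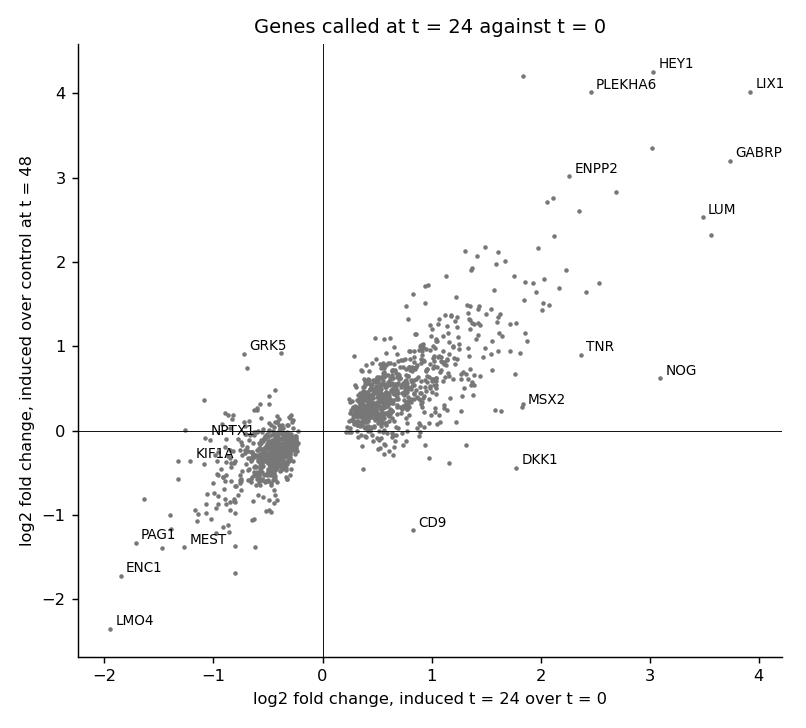
Log2 fold change in treated over control cells at t = 48 (vertical axis) against that at t = 24 over t = 0 (horizontal axis) for the 1394 genes called at t = 24, 1 point a gene. Most points lie in the upper right and lower left, HEY1, LIX1 and LMO4 at the far ends, while DKK1, MSX2 and NPTX1 lie near 0 on the vertical axis and CD9 and GRK5 lie in the opposite corners.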

How the data were processed

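Total RNA of IMR32 cells was labelled with biotin and hybridised to 15 one-colour Affymetrix expression arrays, 3 in each of 5 groups. The deposited intensity values are linear signals, and per the submitters' processing notes they were made with MAS5 and GCOS; versions are not given in the sources used here. No array counts reads, so precision is set by the number of arrays and by signal over background.

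Of 54675 probe sets, 62 were controls, 41091 had 1 gene symbol in the platform annotation, 1801 had several and 11721 had none, and only those with 1 symbol were named. Signals were increased by an offset of 5.16, the mean lower quartile over arrays, and log2-transformed. Probe sets reaching the array median on at least 3 arrays were kept, and the brightest 1 per gene was used, which left 12880 genes. Group means of all 15 arrays were fitted in limma 3.58.1 (R 4.3.3), with eBayes and Benjamini-Hochberg adjustment over all genes at an adjusted p under 0.05 (two-sided). Adjusted p-values of single probe sets came from the same fit over 30676 kept probe sets. In data simulated for this comparison (12880 genes, 200 changed), 73% of the genes changed by 2-fold and 33% of those changed by 1.41-fold were called, and 6.19% of calls were of unchanged genes. The simulated noise was independent between genes, without shifts of whole arrays, so these shares do not carry over to the calls made here.

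Named genes were the 25 largest rises and 25 largest falls among called genes whose groups did not overlap, 10 genes chosen by name, up to 6 called members of each of 49 gene lists (in a list without a call, the member with the largest change). Other cell type markers, DBH and the genes called in opposite directions were named besides, DBH after its values were seen. The lists hold 1428 genes, of which 1085 entered the test. The members and lists were chosen with earlier results of these data known, and lists are described by counts and medians only. Replicate numbers were not taken as pairs. Alternatives covered the offset, scaling, filter, probe set per gene, variance model, arrays in the fit, a replicate block, the threshold and leaving out arrays.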

Additional observations from a re-analysis of the deposited data

Results flagged for a closer look

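Probe sets without a single gene symbol took no part in the comparison of genes. Of 5640 such probe sets kept, 149 were higher and 66 were lower at t = 24 than at t = 0 at an adjusted p under 0.05 in limma over all 30676 kept probe sets. The largest rise among them was that of probe set 209493_at, with signals of 258, 207 and 211 at t = 24, against 52.4, 53 and 42 at t = 0. Its log2 fold change was 2.09 (SE 0.14, adjusted p = 4.94e-06), and in treated over control cells at t = 48 it was 2.32 (adjusted p = 2.55e-06). No gene name is given for it here, and the result was noticed because it lies outside the genes compared.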

How the results depend on the processing

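The count of 1394 genes stayed within 1.5 times under the other offsets (1393 to 1529), quantile normalization (1342), centring on the median of the tested genes (1638), the replicate block (1174), the mean over probe sets (1338), both variance options and the other filters except none (926). It was 776 with the probe set of largest variance, 475 with only the 6 arrays, 597 at an adjusted p of 0.01 and 195 with at least 2-fold. Without array 1 of t = 24 and array 3 of treated t = 48 together it was 953, still within 1.5 times. Centring on the median of all probe sets gave 650 (412 higher, 238 lower). That reading of the planned centring was computed first and was recorded as an added alternative after both were seen. Leaving out single arrays gave 897 (without array 1 of t = 24) to 1109 genes. For t = 48, the count of 1101 was 617 with 6 arrays, 1166 with centring (535 higher, 631 lower), 899 with the replicate block and 625 to 816 without single arrays; it moved by over 1.5 times without array 2 or 3 of the treated or any of the control arrays. MSX1 (0.55) lost its call under quantile normalization (0.51), with the mean over probe sets (0.07, adjusted p = 0.804 in limma), and at values of 0.55 with centring on all probe sets, no filter, the probe set of largest variance, only 6 arrays, the replicate block (adjusted p = 0.0556) or a threshold of 0.01; without single arrays it ranged from 0.46 to 0.66. Of 112 genes named and called, 98 kept their calls without each array in turn, and none changed sign by scaling. Genes without a call changed sign in places. MYCN was -0.05 with centring on tested genes, 0 with centring on all probe sets, -0.05 with the probe set of largest variance, -0.1 with the mean over probe sets and -0.04 to 0.05 without single arrays. GATA3 was 0.14 with the probe set of largest variance and 0.02 with the mean over probe sets. NOTCH3 was 0.1 without those 2 arrays and -0.12 to 0.1 without single arrays; over such arrays DLK1 ranged from -0.02 to 0.26, ACTA2 from -0.08 to 0.05, DCN from -0.12 to 0.52 THY1 from -0.15 to 0.07 and PECAM1, which was -0.02 with centring on tested genes, from -0.1 to 0.13. With only the 6 arrays 5 collagen and 7 mitosis genes were called. The causes were not tested. Same-numbered arrays of t = 24 and t = 0 deviated together at r = 0.067, 0.009 and 0.034, and array 2 of t = 24 correlated best with array 3 of t = 0 (0.017), so the block rests on the number alone. The promoter share was 6.75% in the 250 bases before the start. Dim genes limit the fold changes, since 14 of the 25 largest rises had a mean under 20 at t = 0.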
